A study of Mus musculus with 6 samples.

Results

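Reads from 10 mouse neutrophil genes were followed here, of 55416 gene rows in the count table of this study. They were found by symbol through their Ensembl IDs, and all 10 had a row. Csf3r, Ly6g, S100a8, S100a9 and Retnlg are genes of receptors and of mature cells, Ngp, Camp and Ltf encode proteins of specific granules, and Mpo and Prtn3 encode enzymes of azurophil granules. RNA came from whole liver of male mice, 3 KO and 3 WT, 1 library each. KO animals carried floxed Ephb2 (a receptor of ephrin-B ligands) on both alleles together with Pdgfrb-CreERT2, a tamoxifen-inducible recombinase of stellate cells, pericytes and other mesenchymal cells, and WT animals carried floxed Ephb2 without Cre. All mice, aged 8 to 10 weeks, were given tamoxifen for 5 days and then a choline-deficient high-fat diet (45% of calories as fat, 0.1% methionine, 1% cholesterol) for 8 weeks, a diet that gives a fatty, inflamed and scarred liver. No animal off the diet and none with Cre but without floxed Ephb2 was among the samples. Stellate cells and pericytes, not neutrophils, are the cells this driver is used to reach. The labels number the animals within each genotype and give no litter, batch or day, so a p-value here reflects only the variation among these 6 libraries, which may be partly technical.

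Neutrophils are made in bone marrow in a fixed sequence, and their granule proteins are encoded by genes that are active at different steps of it. Azurophil granule genes are transcribed in promyelocytes and specific granule genes in the myelocytes and metamyelocytes that follow. Both are largely silent by the time the cell enters blood, whereas S100a8, S100a9, Csf3r and Retnlg stay transcribed in mature cells. Neutrophils enter fatty, inflamed liver from blood.

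Total counts ran from 21160690 to 26339251 in the KO libraries and from 21411113 to 23100862 in the WT libraries. The hepatocyte gene Alb, for albumin, was at 32565 to 42996 CPM (counts scaled for library size, with TMM factors) in KO and at 38946 to 41820 CPM in WT libraries. Ephb2 itself was at 6.01, 8.87 and 6.95 CPM in KO replicates 1 to 3 and at 9.46, 8.28 and 12.4 CPM in WT replicates 1 to 3, with overlap (log2 fold change -0.46, edgeR adjusted p = 0.850). KO replicate 2 and WT replicates 1 and 3 stood apart from the other libraries in acute phase RNA, the liver's transcripts for plasma proteins of inflammation. Saa1, which encodes serum amyloid A, stood at 57.3, 1857 and 80.4 CPM in KO replicates 1 to 3 and at 423, 51.6 and 595 CPM in WT replicates 1 to 3. Saa1 and Saa2 are near-identical and can share reads.

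Stretches upstream of 5 members are shown, 4 picked because they hold a match to the letters searched (Mpo, Prtn3, Ltf and S100a8) and Ngp as one without. They come from RefSeq (GRCm38.p6), from 250 bases before the RefSeq start up to the nearest GENCODE M21 exon, and run 5′ to 3′ on the strand of the gene. Capitals mark GAGGAA or its reverse complement TTCCTC, letters that the myeloid factor PU.1 is known to bind.
Mpo (chr11:87793534-87793580, plus strand): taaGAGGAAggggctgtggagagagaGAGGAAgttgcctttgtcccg
Prtn3 (chr10:79879417-79879613, plus strand): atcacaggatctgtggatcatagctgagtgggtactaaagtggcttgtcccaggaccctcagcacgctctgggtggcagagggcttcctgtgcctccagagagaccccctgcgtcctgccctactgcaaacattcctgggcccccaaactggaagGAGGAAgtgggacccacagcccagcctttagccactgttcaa
Ltf (chr9:111019042-111019270, plus strand): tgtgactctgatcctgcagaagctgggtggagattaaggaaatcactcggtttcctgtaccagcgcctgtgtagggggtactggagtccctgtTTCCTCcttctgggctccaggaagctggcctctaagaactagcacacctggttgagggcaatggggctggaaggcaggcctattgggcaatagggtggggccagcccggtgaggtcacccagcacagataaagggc
Ngp (chr9:110419558-110419746, plus strand): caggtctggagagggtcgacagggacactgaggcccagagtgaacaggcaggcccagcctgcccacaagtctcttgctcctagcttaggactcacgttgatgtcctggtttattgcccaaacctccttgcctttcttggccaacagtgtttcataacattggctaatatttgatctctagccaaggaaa
S100a8 (chr3:90668821-90668977, plus strand): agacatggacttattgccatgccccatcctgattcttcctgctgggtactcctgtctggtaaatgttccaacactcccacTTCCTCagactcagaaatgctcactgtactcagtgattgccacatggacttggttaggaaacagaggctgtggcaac
In the full 250 bases before the start, read on both strands, GAGGAA was found in 6 of 10 members (Csf3r, Ly6g, S100a8, Ltf, Mpo and Prtn3), not in S100a9, Retnlg, Ngp or Camp, and in 25.9% of the 27025 genes with a RefSeq window. The C/EBP letters TTNCGNAA were found in 0 of 10 members and in 2.3% of those genes. Mpo held GAGGAA with its first base 247 and 224 bases before the start and Prtn3 at 95 bases. The stretch of Prtn3 lies between exons of longer GENCODE transcripts of the gene. These are matches of letters within the window and not measured binding.

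The receptor Csf3r binds granulocyte colony-stimulating factor, the cytokine that drives neutrophil production. Csf3r (ENSMUSG00000028859, chromosome 4, 126024550 to 126044440, GRCm38 as for all positions here) was at 19.3, 23.7 and 19.8 CPM in KO replicates 1 to 3, against 25.5, 17.98 and 27.5 CPM in WT replicates 1 to 3. It was nearly even over the libraries, with the highest library 1.53-fold over the lowest (95% counting interval 1.35 to 1.74). Reads of its ligand Csf3 were 0 in each library, which allows up to 0.134 CPM in KO and 0.149 CPM in WT libraries, the level of 3 reads. Ly6g, the surface protein by which mouse neutrophils are usually sorted, had 4, 17 and 1 reads in KO replicates 1 to 3, against 3, 0 and 9 reads in WT replicates 1 to 3. Ly6g (ENSMUSG00000022582, chromosome 15, 75155240 to 75159126) has close copies in the Ly6 family that can take or lend reads, and it was the 1 member below the count filter of the test. Its highest library, KO replicate 2 with 0.645 CPM, was 5.12-fold over the level of 3 reads in WT replicate 2, where it had no read. This ratio leaves out counting error: the counting interval was 0.376 to 1.03 CPM in KO replicate 2 and reached 0.155 CPM in WT replicate 2.

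S100a8 and S100a9, the subunits of the calcium-binding protein calprotectin and the most abundant cytosolic proteins of neutrophils, lie close together on chromosome 3 (ENSMUSG00000056054, 90668978 to 90670035, and ENSMUSG00000056071, 90692632 to 90695721). S100a8 was at 5.71, 22.3 and 4.50 CPM in KO replicates 1 to 3, against 11.9, 4.28 and 30.4 CPM in WT replicates 1 to 3. S100a9 was at 6.45, 25.2 and 5.21 CPM in KO, against 17.0, 3.70 and 39.3 CPM in WT replicates. In both genes KO replicate 2 and WT replicate 3 were high, WT replicate 1 lay between, and the genotypes overlapped. In whole liver, a change in the number of neutrophils and a change in the RNA of these genes per neutrophil cannot be told apart. Retnlg, a resistin-like protein secreted by mouse neutrophils (ENSMUSG00000022651, chromosome 16, 48872621 to 48874496), was at 0.654, 3.22 and 1.03 CPM in KO, against 1.58, 1.01 and 6.504 CPM in WT replicates. Its lowest library was KO replicate 1, and otherwise it followed the same order.

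The 3 specific granule genes lie on chromosome 9. Ngp, a cathelicidin-related granule protein (ENSMUSG00000032484, 110419747 to 110423012), was at 5.18, 17.5 and 3.48 CPM in KO replicates 1 to 3, against 10.5, 1.01 and 34.4 CPM in WT replicates 1 to 3. Ltf, the iron-binding lactoferrin (ENSMUSG00000032496, 111019271 to 111042767), was at 3.05, 13.8 and 2.90 CPM in KO, against 8.07, 0.882 and 27.6 CPM in WT replicates. Camp, the precursor of the antimicrobial peptide cathelicidin (ENSMUSG00000038357, 109847379 to 109849617), was at 1.39, 2.88 and 0.669 CPM in KO, against 2.82, 0.336 and 6.79 CPM in WT replicates. In all 3, WT replicate 3 was the highest and WT replicate 2 the lowest of the 6 libraries, so the WT libraries alone spanned the whole range. WT replicate 2 held 24 Ngp, 21 Ltf and 8 Camp reads, and at 8 reads the counting interval of Camp ran from 0.145 to 0.662 CPM.

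Mpo, the enzyme that makes hypochlorous acid (ENSMUSG00000009350, chromosome 11, 87793581 to 87804413), was at 1.48, 8.23 and 1.34 CPM in KO replicates 1 to 3, against 5.55, 0.336 and 20.3 CPM in WT replicates 1 to 3. Prtn3, the serine protease proteinase 3 (ENSMUSG00000057729, chromosome 10, 79874476 to 79883174), was at 1.13, 15.5 and 0.669 CPM in KO, against 14.6, 0.588 and 17.5 CPM in WT replicates. Both were high in KO replicate 2 and WT replicates 1 and 3, and Prtn3 was about level across these 3 libraries where Mpo was not. On the opposite strand Mpo is overlapped by Gm11505, which had 0 reads, and Prtn3 by Plppr3, which was even at 1.26 to 1.34 CPM in KO and 1.26 to 1.48 CPM in WT libraries. Elane, neutrophil elastase and the next gene of azurophil granules, was at 0.349, 2.24 and 0.579 CPM in KO, against 1.58, 0.0420 and 5.12 CPM in WT replicates.

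**Figure D1:**
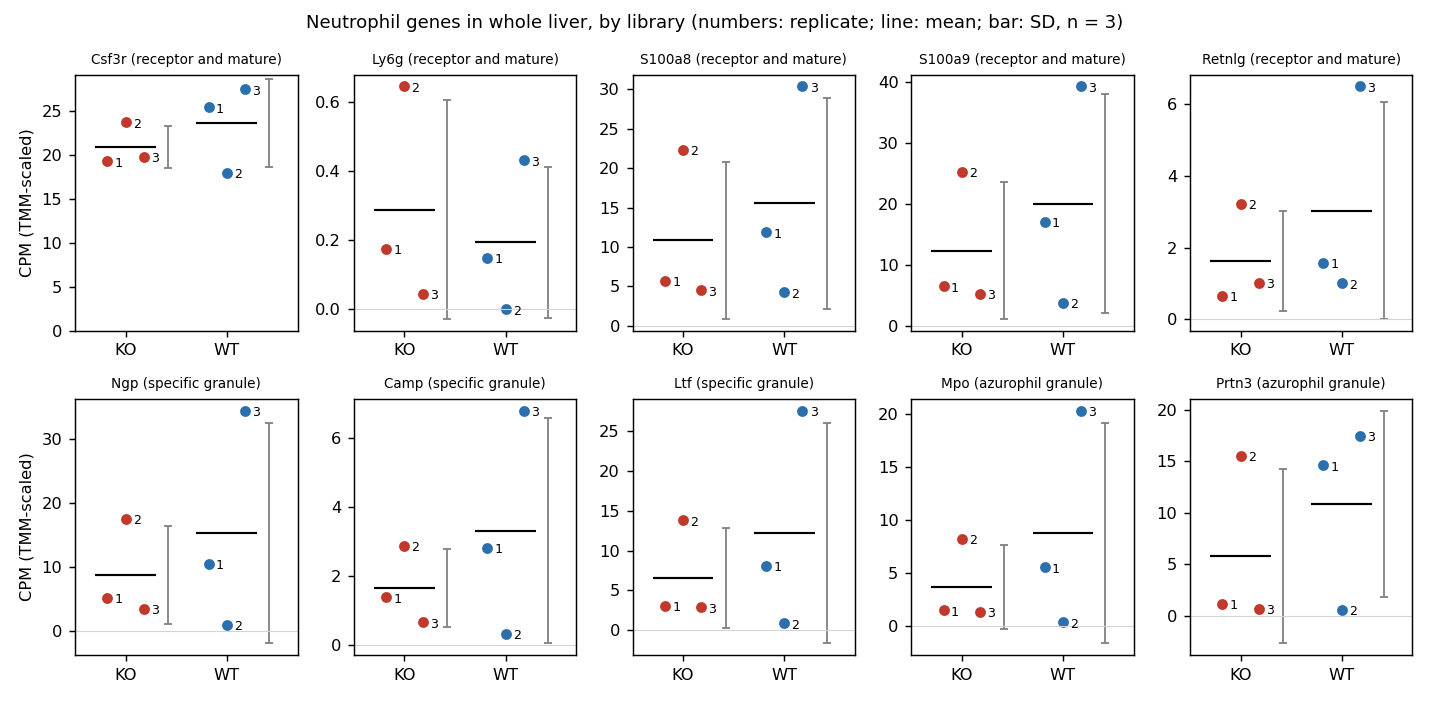
Levels of the 10 genes in CPM (vertical axes, 1 panel a gene) in KO and WT livers; points are libraries with their replicate number, lines are means and grey bars SD (n = 3). KO replicate 2 and WT replicate 3 stand high in the panels of S100a8 to Prtn3, while Csf3r is nearly even and Ly6g reaches no more than 0.645 CPM.

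Per kilobase of exon, S100a9 and S100a8 had the highest mean levels of the members, at 23.5 ± 21.5 and 15.6 ± 14.3 CPM per kb in KO and 38.3 ± 34.4 and 22.4 ± 19.3 CPM per kb in WT livers (SD, n = 3 each). Ngp followed at 7.14 ± 6.27 CPM per kb in KO and 12.5 ± 14.1 CPM per kb in WT. Csf3r stood at 5.81 ± 0.671 and 6.55 ± 1.39, and Prtn3 at 3.34 ± 4.88 and 6.28 ± 5.21 CPM per kb in KO and WT. Retnlg, Camp, Ltf and Mpo came next with means over all libraries of 3.93, 3.27, 2.72 and 1.81 CPM per kb, and Ly6g was last at 0.255. Each gene's range over the libraries overlapped that of the next gene in this order. Compared within each library, S100a9 lay above S100a8, S100a8 above Ngp, Ltf above Mpo and Mpo above Ly6g throughout. The other neighbours changed places between libraries.

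The spread between animals of the same genotype was the main feature of these genes, and it was larger for granule genes than for Csf3r. Between the highest and the lowest library Mpo differed 60.5-fold (95% counting interval 30.4 to 141), Ngp 34.1-fold (22.7 to 53.6), Ltf 31.3-fold (20.3 to 50.9), Prtn3 29.7-fold (17.5 to 54.8) and Camp 20.2-fold (9.98 to 47.7). S100a9 differed 10.6-fold (8.52 to 13.4), Retnlg 9.95-fold (5.83 to 18.3) and S100a8 7.09-fold (5.74 to 8.82). The highest and lowest were WT replicates 3 and 2, apart from Retnlg, whose lowest library was KO replicate 1. Azurophil and specific granule genes were not ordered by class, since Prtn3 lay below Ngp and Ltf and their intervals overlapped. Members are not replicates of a class, so the wider span of granule than of mature genes is a description. Apart from counting error, edgeR put the coefficient of variation within a genotype at 1.01 for Prtn3, 0.917 for Mpo, 0.818 for Ltf, 0.813 for Ngp, 0.715 for Camp, 0.672 for S100a9, 0.639 for Retnlg and 0.628 for S100a8. Csf3r stood at 0.159, close to the median of 0.150 over the 17083 genes tested. A coefficient of 0.6 or more was found in 8 of the 9 members tested and in 0.503% of all genes tested. This cutoff lies just under the lowest of those 8, and the members vary over the same libraries, so the count is a description.

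**Figure D2:**
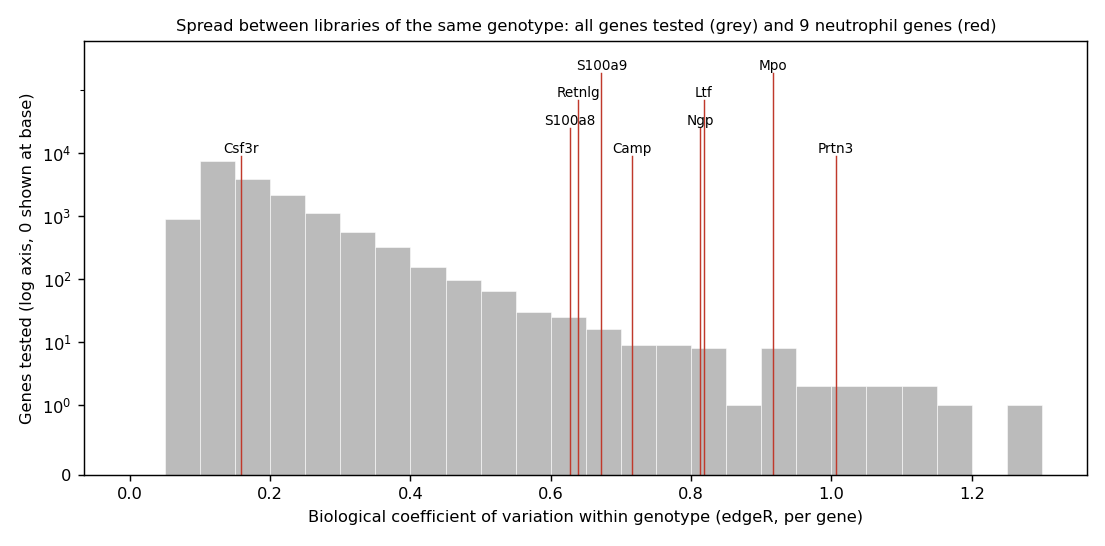
Number of genes tested (vertical, log axis) by their coefficient of variation between libraries of the same genotype (horizontal, no unit), with the 9 neutrophil genes past the count filter as red lines. Csf3r lies in the bulk of genes and the other 8 lie at 0.628 and above, where few genes are found.

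Reads of the granule genes were then set against those of S100a8 and S100a9 in the same library, a ratio that library size does not touch. Per 100 reads of S100a8 and S100a9, Mpo and Prtn3 had 21.5, 50.04 and 20.6 reads in KO replicates 1 to 3, against 69.7, 11.6 and 54.3 reads in WT replicates 1 to 3. The counting intervals of KO replicate 2 (45.4 to 55.1) and of WT replicates 1 (61.3 to 79.2) and 3 (49.7 to 59.2) did not reach those of the other 3 libraries, which ended at 28.6 or below. Against S100a8 and S100a9, reads of Mpo and Prtn3 together were thus more frequent in these 3 libraries. For Mpo alone the gap between these 3 libraries and the others was smaller. KO replicate 2 held 217 Mpo reads to 1253 of S100a8 and S100a9, and KO replicate 3 held 30 to 218. The ends of the range stayed far apart, with 8 to 190 in WT replicate 2 and 425 to 1456 in WT replicate 3. Against Ngp, Camp and Ltf, Mpo and Prtn3 together did not separate the libraries in this way. Per 100 reads of those 3 genes, Mpo and Prtn3 had 27.1, 69.5 and 28.5 reads in KO replicates, against 94.0, 41.5 and 54.9 reads in WT replicates. The interval of WT replicate 2 (24.0 to 69.4) overlapped those of KO replicate 2 (62.7 to 77.1) and WT replicate 3 (50.3 to 60.0). For Ngp, Camp and Ltf the same ratio was 79.2, 72.0 and 72.5 in KO, against 74.1, 27.9 and 98.8 in WT replicates. It was close to even in the KO livers and WT replicate 1, low in WT replicate 2 (20.2 to 38.0) and high in WT replicate 3 (91.8 to 106).

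Within a gene class the genes kept their ratio in some cases and not in others. Ltf had 58.8, 78.8 and 83.3 reads per 100 Ngp reads in KO, against 76.5, 87.5 and 80.3 in WT replicates, and the counting intervals overlapped. S100a9 had 113, 113 and 116 reads per 100 S100a8 reads in KO, against 143, 86.3 and 129 in WT replicates. Here the intervals of WT replicate 1 (121 to 170) and WT replicate 2 (64.1 to 116) did not overlap. Prtn3 had 76.5, 189 and 50 reads per 100 Mpo reads in KO, against 263, 175 and 85.9 in WT replicates. Prtn3 reads thus exceeded Mpo reads in KO replicate 2 (interval 160 to 224) and WT replicate 1 (211 to 330) beyond counting error. They lay below Mpo reads in WT replicate 3 (74.5 to 99.0), although all 3 libraries held over 100 reads of both. Mpo has 3424 exon bases and Prtn3 1732, so 100 does not mark equal levels. Per kilobase of exon, Prtn3 lay above Mpo in WT replicate 3 too, at 10.1 against 5.94 CPM per kb. The interval of WT replicate 2 (68.5 to 481) includes 100. Elane kept closer to Mpo, with 27.2 reads per 100 in KO replicate 2 (interval 20.03 to 36.4), against 28.6 (18.7 to 42.7) in WT replicate 1 and 25.2 (20.2 to 31.2) in WT replicate 3.

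**Figure D3:**
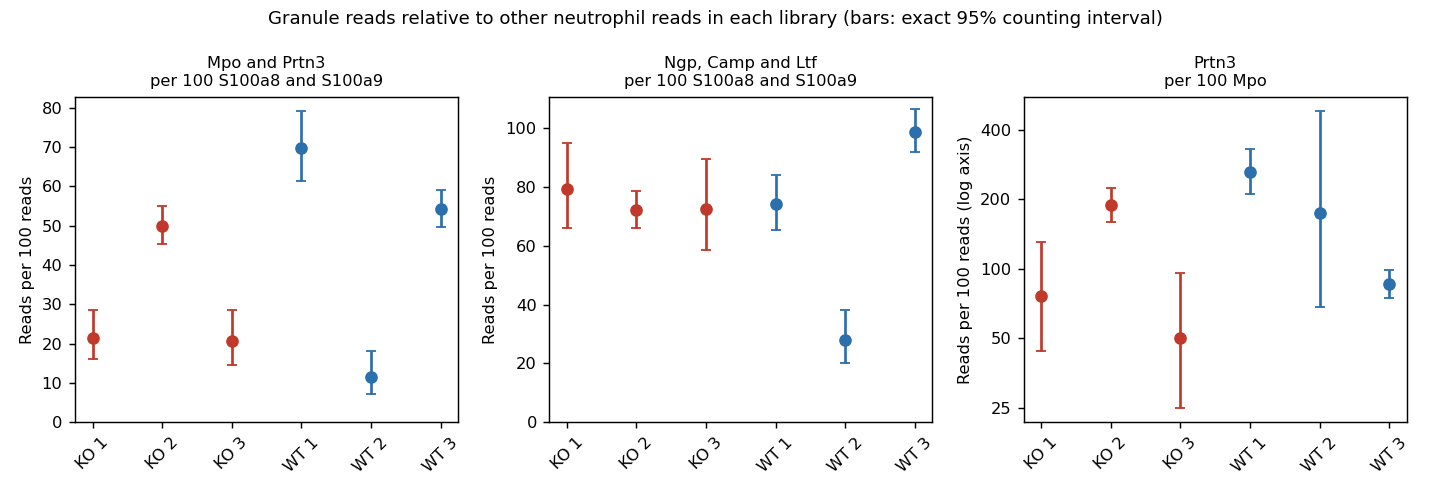
Reads of granule genes per 100 reads of other neutrophil genes in each library (vertical; log axis in the right panel), with exact 95% counting intervals. Mpo and Prtn3 stand at 50.04 to 69.7 per 100 S100a8 and S100a9 reads in KO replicate 2 and WT replicates 1 and 3 and at 11.6 to 21.5 in the other libraries; Prtn3 per 100 Mpo is lower in WT replicate 3 than in WT replicate 1.

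Set against Saa1, the same libraries stood high, though not in the same order. The log2 CPM of Saa1 left a gap of 2.40 between 3 libraries below and 3 above, 46.4% of its range, so the libraries form separate clusters, and a correlation over them cannot be tested and is not given. KO replicate 2 and WT replicates 1 and 3 were the 3 highest libraries in 9 of 9 members tested, a pattern that 10.6% of all genes tested showed. Within WT, replicate 2 was the lowest in Saa1 and in 9 of 9 members, against 33.1% of genes, and within KO, replicate 2 was the highest in Saa1 and in 9 of 9 members, against 34.9% of genes. Both held together in 9 of 9 members and in 16% of genes. Above the gap the order differed: KO replicate 2 held 1857 CPM of Saa1 and WT replicate 3 held 595 CPM, whereas all 9 members were highest in WT replicate 3. The members follow the same libraries and so count as 1 observation rather than 9.

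**Figure D4:**
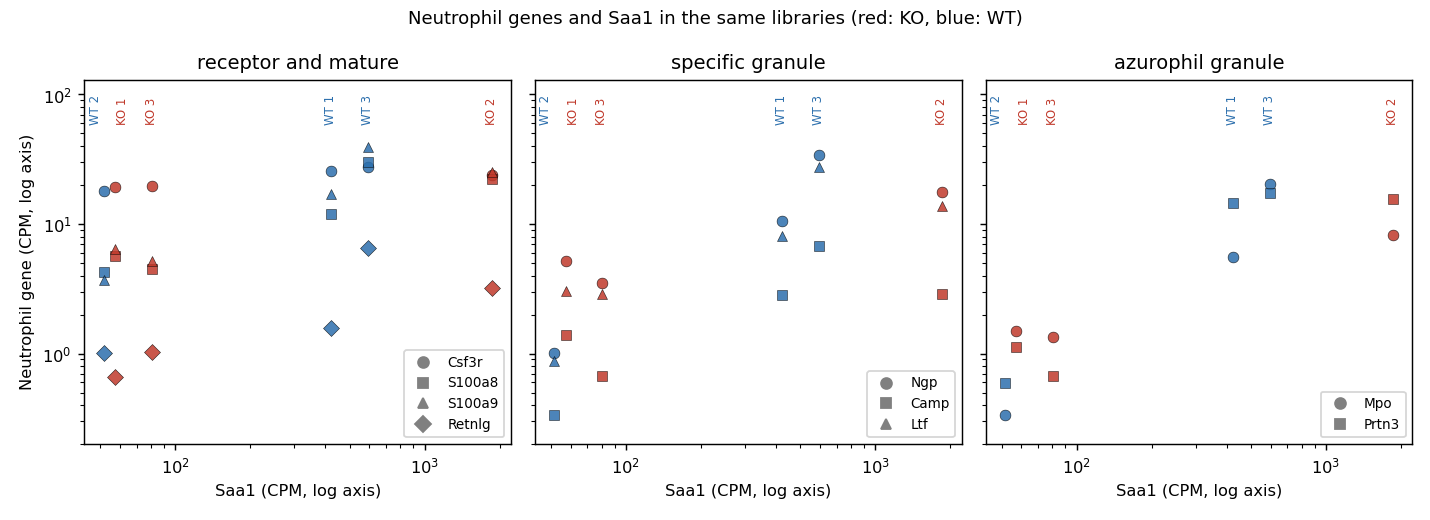
Level of each neutrophil gene (vertical, CPM, log axis) against Saa1 in the same library (horizontal, CPM, log axis), KO in red and WT in blue, by gene class. KO replicate 2 and WT replicates 1 and 3 lie to the right with more Saa1 and are higher in the granule genes, Csf3r is nearly flat, and WT replicate 3 tops KO replicate 2 at less Saa1.

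The comparison of KO with WT liver asks whether deletion of Ephb2 in Pdgfrb-expressing cells goes with a different neutrophil content under the diet. No member passed the test: edgeR's quasi-likelihood test called 0 of 9, beside 0% of the 17083 genes tested, and 0 of 9 reached an unadjusted p under 0.05, beside 5.19% of genes (2.1% lower in KO). DESeq2, which called 0.0607% of the 13176 genes it kept, and limma-voom, which called 0%, also called 0 members. All 9 log2 fold changes were negative, as were 51% of those of all genes, and their median was -0.86 against -0.0048 over all genes. Ly6g, below the filter, went the other way, at 0.58 by DESeq2 and 0.64 by edgeR with no count filter. The smallest adjusted p was that of Camp, at 0.858. The genotypes overlapped in 9 of 9 members, and in 11.1% of genes tested they did not overlap (4.9% lower in KO).

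Among the receptor and mature genes, Csf3r differed least, by -0.17 on the log2 scale (95% interval -0.56 to 0.22), with the narrowest interval of the members. S100a8 stood at -0.50 (-2.26 to 1.25), S100a9 at -0.69 (-2.58 to 1.202) and Retnlg at -0.86 (-2.66 to 0.94). For the specific granule genes the values were -0.80 (-3.08 to 1.49) for Ngp, -0.98 (-2.96 to 1.00) for Camp and -0.87 (-3.18 to 1.44) for Ltf. For the azurophil genes they were -1.22 (-3.79 to 1.35) for Mpo and -0.89 (-3.69 to 1.92) for Prtn3. The size depended on the tool: limma-voom gave -0.26 for Mpo, -0.31 for Camp, -0.095 for Ltf and 0.068 for Ngp. With the replicate number as a block, Prtn3 was at -2.04. Apart from that of Csf3r, each of these intervals reaches below -2 and above 0.9. A single library set the direction: without WT replicate 3 the median was 0.36 and 2 of 9 members were negative (Csf3r and Prtn3), and without KO replicate 2 it was -1.82 with 9 of 9 negative.

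**Figure D5:**
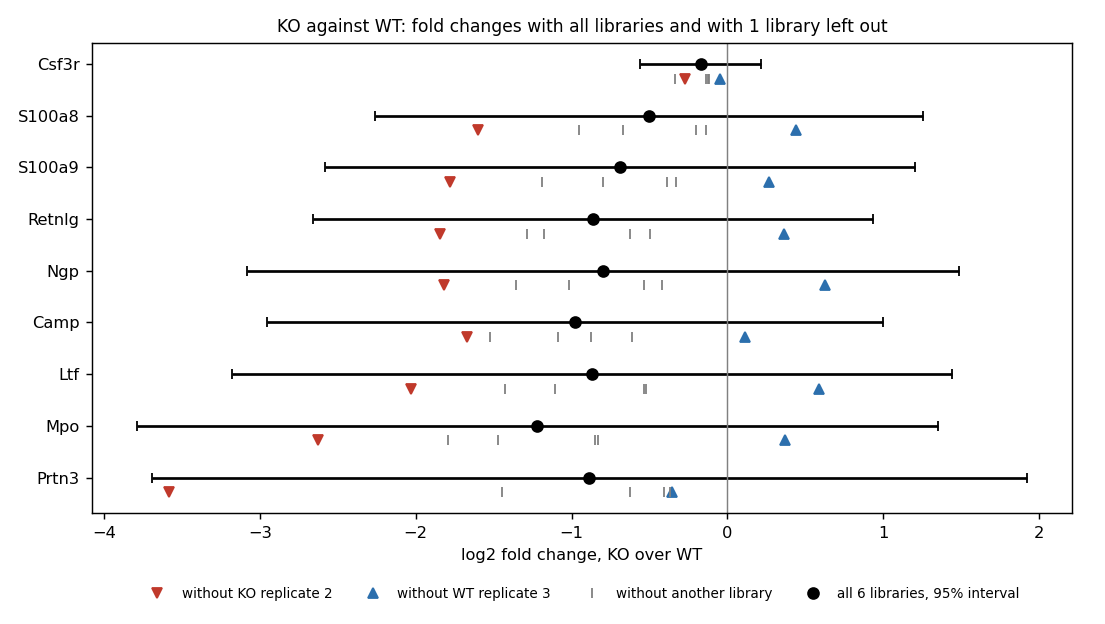
Log2 fold change of KO over WT (horizontal) for the 9 members past the count filter, with all libraries and the 95% interval (black) and with 1 library left out (triangles and ticks). All intervals include 0; leaving out WT replicate 3 moves 7 of 9 genes above 0 and leaving out KO replicate 2 moves 9 of 9 further below it.

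With log2 Saa1 as a further term in the edgeR fit the fold changes stayed negative and 0 members passed. Prtn3 was then at -1.42 (SE 0.41, adjusted p = 0.704), where without the term its SE was 1.22. S100a8 was at -0.49 (SE 0.32, adjusted p = 0.759) with the term. The slope of this term rests on the separate clusters described above.

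Other neutrophil genes were read from longer lists. Of 26 genes of mature neutrophils, 23 were past the filter and 0 were called, 21 were negative and 2 positive, with a median of -0.52. In 20 of the 23 WT replicate 2 was the lowest WT and KO replicate 2 the highest KO library, beside 16% of all genes. The smallest p values were those of Fpr1 and Fpr2, receptors for formylated peptides. Fpr1 was at 1.92, 2.54 and 1.07 CPM in KO, against 3.12, 2.77 and 7.99 CPM in WT replicates, and Fpr2 at 1.18, 1.59 and 0.981 CPM in KO, against 2.43, 1.302 and 3.87 CPM in WT. Fpr1 was the 1 gene of these 23 without overlap (log2 fold change -1.31, edgeR adjusted p = 0.850), where 11.1% of all genes tested had none, and Fpr2 overlapped (-1.003, edgeR adjusted p = 0.850). Wfdc21, a secreted whey acidic protein family member and the most abundant gene of the list, was at 31.2, 110 and 38.2 CPM in KO, against 127, 37.3 and 104 CPM in WT replicates. Unlike the members tested, Wfdc21 was higher in WT replicate 1 than in WT replicate 3, and which cells its reads came from was not tested.

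Of 10 specific granule genes all were past the filter, 9 were negative and 1 positive, 0 were called, and the median was -0.65. Lcn2, lipocalin-2, which inflamed hepatocytes also make, was at 233, 2175 and 274 CPM in KO, against 1145, 246 and 2285 CPM in WT replicates. Chil3, a chitinase-like protein of neutrophils and macrophages, was at 2.83, 17.2 and 1.87 CPM in KO, against 10.5, 1.89 and 29.2 CPM in WT replicates. The exception to the order of libraries was Cebpe, the transcription factor that specific granule genes need, at 4.14, 3.15 and 3.12 CPM in KO, against 6.64, 3.40 and 3.73 CPM in WT replicates. Of 5 azurophil genes 3 were past the filter, all negative and not called, with a median of -1.04. Ctsg, cathepsin G, had 3, 14 and 4 reads in KO, against 5, 2 and 48 reads in WT replicates, and Ms4a3, a marker of granulocyte progenitors, had 2, 14 and 1 reads in KO, against 6, 0 and 24 reads in WT replicates.

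Genes that draw neutrophils in or hold them to the vessel wall were read from a list of their own. Of 15, 2 had 0 reads in every library (Csf3 and Il17a) and 11 were past the filter, with 0 called, 7 negative, 4 positive and a median of -0.20. The order of libraries described above was found in 1 of the 11, beside 16% of all genes, the chemokine Ppbp of platelets, a gene named after its values were seen. The adhesion proteins Vcam1 and Icam1, the most abundant of the list, were at 77.7 to 102 and 57.3 to 70.9 CPM in KO and at 70.7 to 139 and 55.8 to 68.5 CPM in WT libraries. Cxcl2, a ligand of the neutrophil receptor Cxcr2, had the smallest p value of the list, and it was at 0.958, 1.33 and 1.25 CPM in KO, against 1.44, 1.68 and 1.48 CPM in WT replicates, with a log2 fold change of -0.38 (edgeR adjusted p = 0.850). It was the 1 gene of the 11 without overlap, again beside 11.1% of all genes tested.

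Markers of other cells moved with the members in part. Summed levels of 13 monocyte and macrophage genes were 1566, 1810 and 1406 CPM in KO, against 1798, 1406 and 2600 CPM in WT replicates, and 7 of 13 showed the order of libraries. Summed levels of 10 erythroid and platelet genes were 253, 337 and 240 CPM in KO, against 364, 205 and 873 CPM in WT replicates, with the order in 5 of 8 tested. Hbb-bs, the beta-globin of red cells, was at 94.9, 157 and 100.0 CPM in KO, against 152, 80.2 and 435 CPM in WT replicates, so globin RNA was also highest in WT replicate 3. The part of these other cells and of blood in the neutrophil results was not tested. Summed levels of 10 eosinophil, basophil and mast cell genes were 3.75 to 4.78 CPM in KO and 4.70 to 5.94 CPM in WT libraries, with none at 0 throughout. Summed levels of 9 lymphocyte genes were 9.33 to 16.7 CPM in KO and 10.3 to 12.3 CPM in WT libraries, with the order in 1 of 9. Of 21 acute phase genes, 19 showed the order, and the share over all genes tested, for this list and those above, is 16%. The 21 include Saa1 itself and Lcn2, which is also in the list of specific granule genes.

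The genes whose levels over the 6 libraries were most like the mean of the 5 receptor and mature genes were sought among 14962 further genes with a mean of at least 1 CPM. These 5 include Ly6g at equal weight, which was below the count filter. With 17 reads or fewer in each library, its logged levels rest in part on the prior count of 2. Arpc1b, a subunit of the actin-branching Arp2/3 complex, was the closest, with Pearson's r of 0.9996 over 6 libraries as a description. Arpc1b was at 106, 140 and 103 CPM in KO, against 123, 96.8 and 150 CPM in WT replicates. Ormdl2, Hpx, Elf3, Slc17a9, Pkm, Pdzrn3 and Myo15b followed with r from 0.990 to 0.995. Hpx, hemopexin, is a plasma protein of hepatocytes. All levels share library and scaling, 3.41% of the genes had r over 0.9, and the median r was -0.011.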

How the data were processed

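Whole-liver RNA of 3 KO and 3 WT mice was sequenced, enriched for polyadenylated RNA with a directional kit on an Illumina NovaSeq, per the labels' protocols. The table the authors deposited holds raw counts, whole numbers for each Ensembl gene ID. The submitters' processing notes list STAR 2.7.6a, featureCounts 1.6.3 and DESeq2 1.30.0, with GRCm38 and mm10 as builds. Which annotation and strand setting the counting used is not given in the sources used here, so reads of overlapping or near-identical genes may be shared. Symbols, positions and exon lengths came from GENCODE M21 (GRCm38), which named 52083 of 55416 IDs.

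All genes were fitted with edgeR 4.0.16 in R 4.3.3 (quasi-likelihood test, TMM factors, genotype as the term, filterByExpr with minimum count 10 and minimum total 15, Benjamini-Hochberg adjustment over 17083 genes at 0.05). Logged levels used a prior count of 2. Counting intervals are exact 95% intervals and, like the floor of 3 reads, cover counting error only. Alternatives used DESeq2 1.42.0, limma 3.58.1 and those of the closing section. The fit was tested on simulated counts. The members and lists were chosen with earlier results of these data known. By rule, all members were named, and from each list the 3 most abundant genes and the 2 with the smallest p, besides the 8 most alike; not all are described. Ctsg, Ms4a3 and Csf3, Ppbp and Cxcl1 were named after their values were seen.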

Additional observations from a re-analysis of the deposited data

How the results depend on the processing

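No alternative called a member. Over all genes the count of calls was 0 with all libraries, 3 with no count filter, 8 by DESeq2, 0 to 2 with 1 library left out (2 without WT replicate 3), and 0 otherwise, also at an adjusted p under 0.1. Genes at an unadjusted p under 0.05 numbered 886 with all libraries and 537 with the replicate block; leaving out KO replicate 3 gave 452 and leaving out WT replicate 2 gave 1858. With log2 Saa1 as a term there were 1175, and without KO replicate 2 there were 899. Of the 9 members, 2 reached it without WT replicate 2, 1 without KO replicate 2 and 1, Prtn3, with the Saa1 term. By edgeR, Prtn3 then had an unadjusted p of 0.00835 and an adjusted p of 0.704. The median log2 fold change of the members ran from -1.82 (without KO replicate 2) to 0.36 (without WT replicate 3). Over the libraries left out the values were -1.60 to 0.44 for S100a8, -1.78 to 0.27 for S100a9, -1.85 to 0.36 for Retnlg, -1.82 to 0.62 for Ngp, -1.67 to 0.11 for Camp, -2.03 to 0.59 for Ltf, -2.63 to 0.37 for Mpo, -3.58 to -0.36 for Prtn3 and -0.34 to -0.049 for Csf3r, with each positive value reached without WT replicate 3. Under limma-voom the median was -0.31, with Ngp at 0.068, S100a9 at -0.41 and Prtn3 at -1.01, and the cause was not tested. With no count filter Ly6g was fitted at 0.64, and the other members were negative. With the replicate number as a block 0 members were called and their median was -0.69, with Ngp at -0.50 and Camp at -0.65. The deviations of same-numbered libraries from their group means correlated at -0.029, -0.44 and -0.31. With 3 libraries a group these values cannot show whether the numbers pair the samples, and the labels do not say. With no scaling factor beyond library size, all genes had a median of 0.075, and all 9 members stayed negative. Depth limits Ly6g, Ctsg and Ms4a3, which had few reads in most libraries, and WT replicate 2, where Mpo and Camp had 8 reads each.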

Other observations

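Cxcl1, the chemokine by which liver cells draw in neutrophils through Cxcr2, was chosen after its values were seen. It was at 12.5, 25.7 and 13.1 CPM in KO replicates 1 to 3, against 40.5, 11.9 and 10.95 CPM in WT replicates 1 to 3. Cxcl1 was thus high in KO replicate 2 and WT replicate 1, the libraries in which Prtn3 reads outnumbered Mpo reads beyond counting error. In WT replicate 2, where Cxcl1 was low, Prtn3 had 175 reads per 100 Mpo reads (interval 68.5 to 481), against 189 in KO replicate 2. In WT replicate 3, which held the most S100a8, Ngp and Mpo, Cxcl1 was close to its level in WT replicate 2 and KO replicates 1 and 3. Cebpe was also highest in WT replicate 1, but in KO replicate 2 (3.15 CPM) it lay below KO replicate 1 (4.14 CPM). These are values of single libraries without a test.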
